A study of Mus musculus with 8 samples.

Results

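Protocadherins are cell surface adhesion proteins of the cadherin superfamily, and all genes whose symbol starts with Pcdh were collected by name from a mouse gene expression array. By probe accession, 59 of the array's 39429 probes were matched to 46 of the 70 Pcdh genes that RefSeq lists. They covered 7 of 14 genes of the alpha cluster (Pcdha, 9 probes), all 22 genes of the beta cluster (Pcdhb, 22 probes), 6 of 22 genes of the gamma cluster (Pcdhg, 7 probes) and 11 of the 12 other Pcdh genes (21 probes). Of these others only Pcdh11x had no matched probe. Probes whose accession matched no gene or several genes stayed unnamed, so a gene without a matched probe may still be on the array. Total RNA from whole hippocampi dissected by hand was labelled with one dye and hybridised to 8 arrays, 4 from mice aged 3 months (3M) and 4 from mice aged 29 months (29M). All mice were C57BL/6J, wild type and untreated, and they had aged in their home cages, the old ones after purchase at an advanced age. The sources do not state their sex or whether each array held RNA of a single animal, so the p-values measure only the spread between these arrays, which may be in part technical. The members were taken by name, but the family itself was selected on its 29M against 3M changes in these arrays. Those changes are therefore given as a description, and the p-values say only which probes passed the thresholds used for all probes.

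The clustered protocadherins lie in tandem in one genomic region. In the alpha and gamma clusters each variable exon has its own promoter and is spliced to constant exons shared by the whole cluster, whereas the beta genes have a single coding exon and no constant part. A neuron transcribes a small and largely random set of these genes, chosen through promoter methylation and through looping of promoters to enhancers by CTCF and cohesin, and the proteins recognise their own kind on other membranes, which lets dendrites and axons of one cell avoid each other. The c-type genes at the end of the alpha and gamma clusters are chosen less randomly. The non-clustered protocadherins are single genes spread over the genome, mostly of the delta type, with roles in synapse formation, axon growth and cell sorting.

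Within the family, genes of the beta cluster carried higher signal in 29M, those of the alpha cluster mostly lower signal, and those of the gamma cluster and the non-clustered genes showed little difference. Each value below is a log2 intensity after variance stabilising normalization, and a change is the 29M mean minus the 3M mean of 4 arrays each. A probe was called where its p-value, adjusted over all 39408 tested probes, was under 0.1 and its change was at least 0.5, which is 1.41-fold. By this rule 6 protocadherin probes rose, all of the beta cluster, and 1 fell, of the alpha gene Pcdhac2. Over the whole array 1.25% of probes were called higher, 0.817% lower and 2.06% in either direction. Nothing is read from the family's count against these shares, because the same contrast led to its choice. With a gene represented by its brightest probe, the median change was 0.38 for the 22 Pcdhb genes, -0.27 for the 7 Pcdha genes, 0.01 for the 6 Pcdhg genes and -0.08 for the 11 others. The median over all 19742 genes on their brightest probe was 0.01, and that over all tested probes 0.00.

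In the beta cluster, 19 of 22 genes had a higher value in 29M and 3 a lower one, while over the whole array 50.8% of probes were higher and 49.2% lower by any amount. All 22 probes were well above background on all 8 arrays. Without the minimum size, 10 Pcdhb probes passed the adjusted p, against 1.94% of all probes in this direction and 1.59% in the other. In 10 Pcdhb probes the 29M arrays all lay above the 3M arrays, and in none all below, where 5.49% of all probes had groups apart in the one direction, 5.48% in the other and 11.0% in either. The 3M and 29M arrays were spread over 3 slides, each with arrays of both ages. Slide 1 held 3M replicate 1 and 29M replicates 3 and 4, and slide 2 held replicate 2 of both ages. Slide 3 held 3M replicates 3 and 4 and 29M replicate 1. A change within a slide therefore rested on a single array of at least 1 age. In 17 of the 22 genes the change had the same sign on all 3 slides, which was so for 44.3% of all probes, and the median change of the cluster was 0.33, 0.42 and 0.38 within slides 1, 2 and 3.

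**Figure D1:**
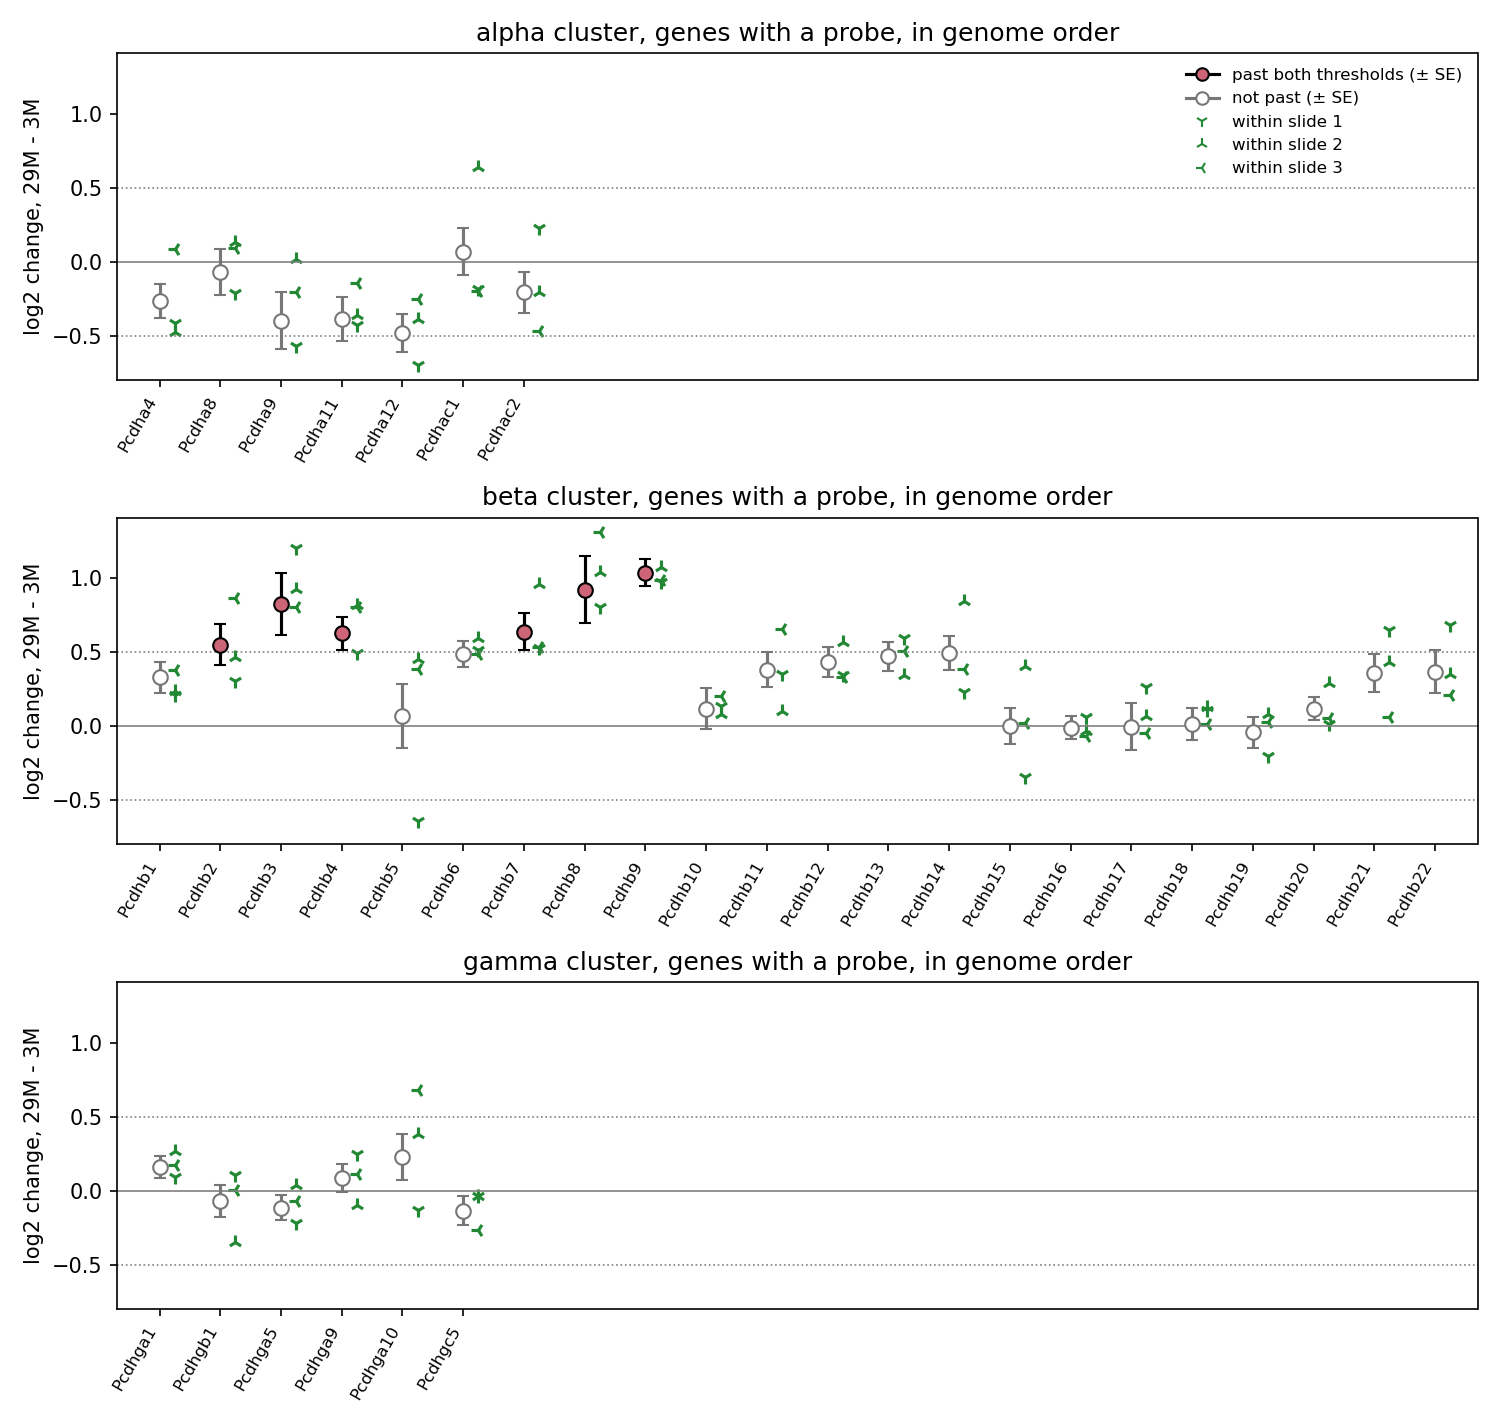
Log2 change (29M minus 3M, y axis) of each clustered protocadherin gene with a probe, in genome order along the x axis, with 1 panel per cluster. Circles are the gene's brightest probe with its standard error (8 arrays), filled where it passed both thresholds, green marks are the changes within each slide, and dotted lines stand at the minimum change of 0.5; values from Pcdhb1 to Pcdhb14 have a median of 0.49 and those from Pcdhb15 to Pcdhb20 a median of 0.00.

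Pcdhb9 had the largest change of the family. Its values were 9.44, 9.18, 9.38 and 9.22 on the 3M arrays and 10.29, 10.26, 10.43 and 10.40 on the 29M arrays. The groups lay far apart, with little spread within either. The change was 1.04 (SE 0.09), a 2.06-fold rise, with an adjusted p of 0.00196, and it was 0.97, 1.08 and 0.99 within the 3 slides.

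Pcdhb8 and Pcdhb3 followed in size, with more spread. Pcdhb8 measured 8.15, 8.35, 8.57 and 8.27 in 3M and 9.73, 9.39, 9.38 and 8.53 in 29M. Its last 29M array fell inside the 3M range, so the groups overlapped although the probe passed both thresholds. The change was 0.92 (SE 0.23), 1.90-fold, with an adjusted p of 0.0845. Pcdhb3 measured 9.76, 10.58, 10.64 and 10.54 in 3M and 11.40, 11.51, 10.92 and 11.01 in 29M. The first 3M array was far below the other 3M arrays, and the groups did not overlap. The change was 0.83 (SE 0.21), 1.77-fold, with an adjusted p of 0.0960, and without that array it was 0.62 with an adjusted p of 0.0603. The calls of both genes were unstable: over 18 fits with another setting, Pcdhb8 lost its call in 9 and Pcdhb3 in 10, and for each gene 6 of these fits left out a single array. The Pcdhb3 probe is printed 10 times on each array, and the low reading was shared by its spots, which ran from 9.35 to 9.97 on the first 3M array and from 10.19 to 10.82 on the other 3M arrays. The scanner software asked for an evaluation of this array and of no other.

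Pcdhb7, Pcdhb4 and Pcdhb2 rose by smaller amounts, and in each the groups did not overlap. Pcdhb7 measured 10.97, 10.93, 11.15 and 10.77 in 3M and 11.49, 11.89, 11.43 and 11.57 in 29M, a change of 0.64 (SE 0.12), 1.56-fold, with an adjusted p of 0.0405. Pcdhb4 measured 9.69, 9.62, 9.82 and 9.77 in 3M and 10.60, 10.44, 10.21 and 10.17 in 29M, a change of 0.63 (SE 0.11), 1.55-fold, with an adjusted p of 0.0298. Pcdhb2 was the dimmest of them. It measured 7.08, 7.14, 7.06 and 6.57 in 3M and 7.68, 7.61, 7.34 and 7.42 in 29M, a change of 0.55 (SE 0.14), 1.47-fold, with an adjusted p of 0.0936. The last 3M array was the low one here, and without it the change was 0.42 with an adjusted p of 0.121. Pcdhb2 lost its call in 10 of the 18 fits.

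**Figure D2:**
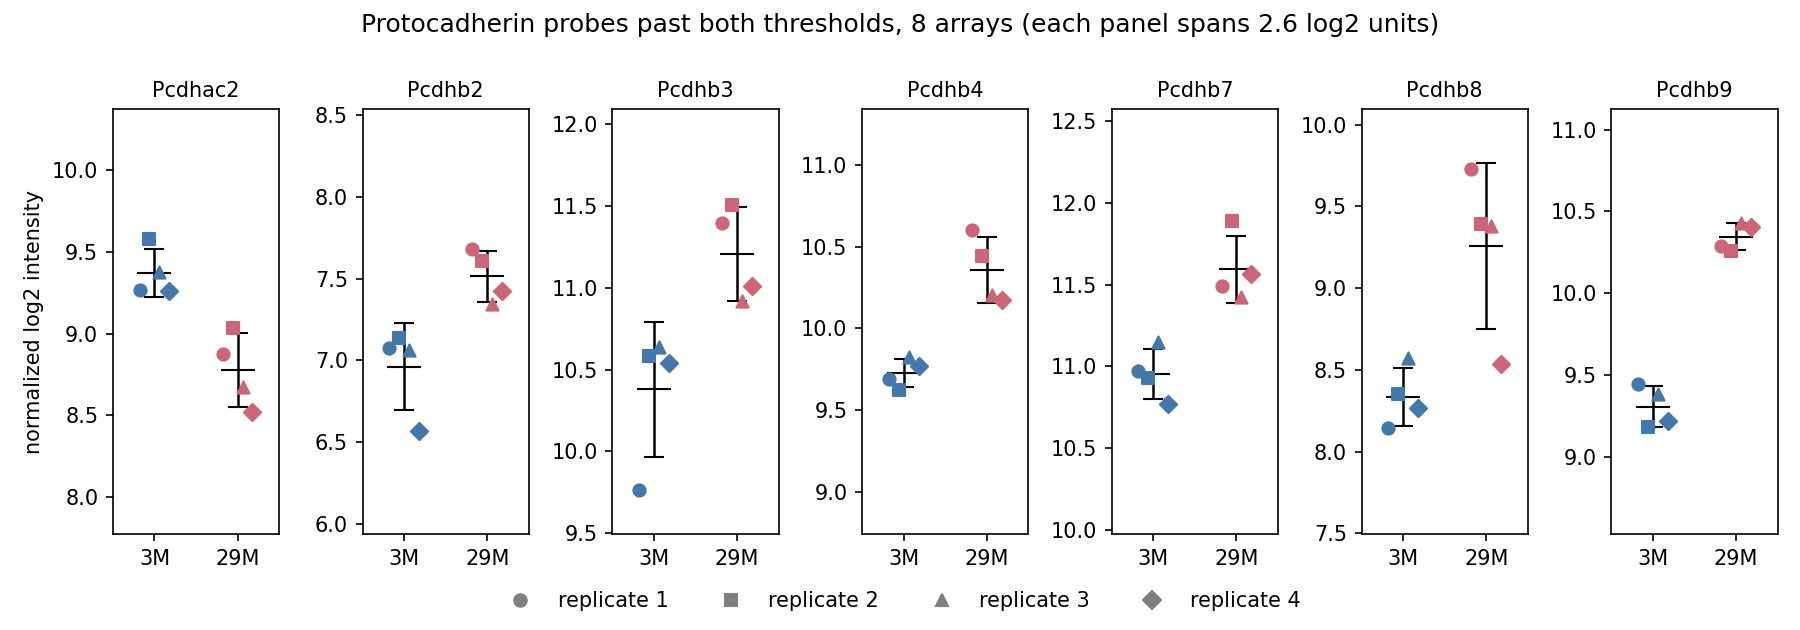
Normalized log2 intensity (y axis) of the 7 protocadherin probes that passed both thresholds on each of the 8 arrays, with 3M in blue and 29M in red and the marker shape giving the replicate number. Bars are the mean and SD of 4 arrays, every panel spans the same number of log2 units, and the Pcdhac2 panel shows the dimmer of its 2 probes; groups overlap only for Pcdhb8.

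The 4 Pcdhb genes that passed the adjusted p but missed the minimum size, named here after their values were seen, were Pcdhb14, Pcdhb6, Pcdhb13 and Pcdhb12. Their changes were 0.497, 0.49, 0.47 and 0.44. Pcdhb6 had the smallest spread among them, with 11.72, 11.86, 11.95 and 11.80 in 3M and 12.36, 12.45, 12.20 and 12.26 in 29M, and an adjusted p of 0.0338. Pcdhb14 was just outside the minimum size, with an adjusted p of 0.0736, and Pcdhb2 just inside it.

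The Pcdhb values were also read along the chromosome. The first 14 genes in genome order, Pcdhb1 to Pcdhb14, had a median change of 0.49, from 0.07 for Pcdhb5 to 1.04 for Pcdhb9. All 6 called genes and all 10 genes with groups apart lay in this stretch, and 12 of its 14 genes changed by at least 0.3 on the log2 scale, the exceptions being Pcdhb5 and Pcdhb10. The next 6 genes, Pcdhb15 to Pcdhb20, had a median of 0.00, from -0.04 for Pcdhb19 to 0.12 for Pcdhb20, and in all of them the groups overlapped. The last 2, Pcdhb21 and Pcdhb22, measured 0.36 and 0.37, with adjusted p of 0.207 and 0.237. High and low values thus stood next to each other at several places. These stretches were drawn after the values were seen, so their medians are a description, and the difference between them has no test.

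The stretches come from the same 8 arrays, so their values within slides are no support for them either. The medians within slides 1, 2 and 3 were 0.43, 0.58 and 0.52 for the first stretch, 0.04, 0.11 and 0.02 for the middle one and 0.67, 0.39 and 0.14 for the last, which was above the first on slide 1 and well below it on slide 3. The 3M means of the probes ran from 6.77 to 11.83 in the first stretch and from 6.74 to 12.24 in the middle one.

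Within the first stretch, Pcdhb5 and Pcdhb10 stood apart from their neighbours. Pcdhb5 measured 8.89, 7.93, 8.52 and 7.84 in 3M and 8.56, 8.39, 8.24 and 8.25 in 29M. Its 3M arrays spread widely on both sides of the 29M arrays (SD 0.50 against 0.15), and its change was -0.64 within slide 1 and 0.46 and 0.39 within the others. Pcdhb10 changed by 0.12 (SE 0.14). In the middle stretch the values of the lower genes were close to 0: -0.01 for Pcdhb16 (SE 0.08), -0.00 for Pcdhb17 (SE 0.16) and -0.04 for Pcdhb19 (SE 0.10).

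The beta genes are close in sequence to each other, and the files give no probe sequence or position within a gene. A probe may therefore also bind the transcript of another member of the cluster, and values of single clustered genes are uncertain to that extent. The same holds for the alpha and gamma genes, whose transcripts share their constant exons.

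Averaged over the beta genes, the arrays of the 2 ages lay apart. This restates the changes on which the family was selected and is no further support for them. The mean over the 22 genes of each array's deviation from the gene's 8-array mean was -0.19 ± 0.08 in 3M (SD, n = 4, from -0.27 to -0.09) and 0.19 ± 0.09 in 29M (SD, n = 4, from 0.11 to 0.30). For the 7 alpha genes it was 0.12 ± 0.10 in 3M (SD, n = 4, from 0.04 to 0.25) and -0.12 ± 0.18 in 29M (SD, n = 4, from -0.29 to 0.06). The alpha groups overlapped: 2 of the 29M arrays, both on slide 1, lay well below all 3M arrays, and the highest 29M array lay above 2 of the 3M arrays. For the gamma genes the means were -0.01 ± 0.07 and 0.01 ± 0.08, and for the non-clustered genes 0.05 ± 0.08 and -0.05 ± 0.09 (SD, n = 4 in each), with overlap in both cases.

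**Figure D3:**
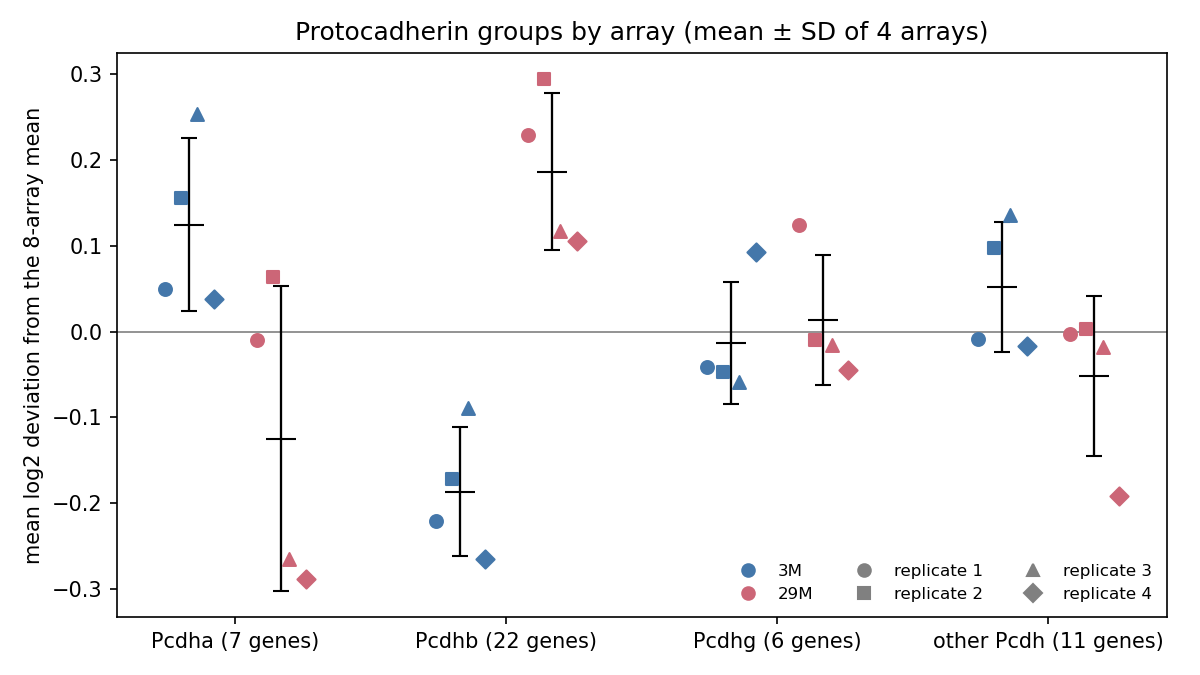
Mean deviation of each array from the 8-array mean of a gene (log2 units, y axis), averaged over the genes of the alpha, beta and gamma clusters and the non-clustered protocadherins (x axis), with 3M in blue and 29M in red. Bars are the mean and SD of 4 arrays. Only for the 22 Pcdhb genes do the groups not overlap, which describes the changes on which the family was selected.

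In the alpha cluster, 6 of 7 genes had a lower value in 29M and 1 a higher one. The 2 genes with groups apart, Pcdhac2 on one of its probes and Pcdha12, are described first. These were 2 of the 9 alpha probes, both lower, where 5.48% of all probes had groups apart in this direction. Pcdhac2, a c-type gene known for its role in the spacing of serotonergic axons, had 2 probes. The dimmer one measured 9.26, 9.58, 9.38 and 9.26 in 3M and 8.88, 9.03, 8.67 and 8.52 in 29M. It fell by 0.59 on the log2 scale (SE 0.13), with an adjusted p of 0.0569. The brighter one measured 13.71, 14.24, 14.40 and 14.25 in 3M and 13.86, 14.04, 13.93 and 13.95 in 29M, a change of -0.21 (SE 0.14) with an adjusted p of 0.499. Its groups overlapped through the first 3M array, so the 2 probes of this gene were not called alike. The difference between them was not tested, and the call of the dimmer probe was lost under some settings given in the closing section.

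Pcdha12 measured 9.43, 9.48, 9.53 and 9.12 in 3M and 9.08, 9.09, 8.76 and 8.69 in 29M. The groups did not overlap, but the change of -0.48 (SE 0.13) had an adjusted p of 0.107 and missed both thresholds. Pcdha9 measured 9.38, 9.63, 9.74 and 9.54 in 3M and 9.44, 9.64, 8.86 and 8.76 in 29M. Its change of -0.40 (SE 0.19, adjusted p 0.338) rested on the last 2 of the 29M arrays, both of slide 1. Pcdha11 changed by -0.39 (SE 0.15, adjusted p 0.230). The c-type gene Pcdhac1 was dim and changed by 0.07 (SE 0.16). The remaining alpha genes, Pcdha4 and Pcdha8, changed by -0.27 and by -0.07 on the brighter of the Pcdha8 probes. The median change of the cluster was -0.42, -0.20 and -0.20 within slides 1, 2 and 3. At an unadjusted p under 0.05, 4 of the 9 alpha probes were lower and 0 higher, and 14 of the 22 beta probes were higher and 0 lower. Over the whole array 8.24% of probes were higher and 8.68% lower by this rule.

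In the gamma cluster no probe was called, and none had an unadjusted p under 0.05 in the limma fit. Pcdhga1 measured 6.80, 6.74, 6.80 and 6.78 in 3M and 6.96, 7.01, 6.95 and 6.83 in 29M. Its groups did not overlap, but the change of 0.16 (SE 0.07) was small and had an adjusted p of 0.310. No other of the 7 gamma probes had groups apart, where 5.49% of all probes did in this direction. Pcdhga9 changed by 0.09 (SE 0.09) on its brighter probe and by -0.16 (SE 0.10) on the dimmer one. The brighter probe had a 3M mean of 17.14, against 9.19 for the dimmer one and 6.14 to 7.75 for the other gamma genes. Whether it reads the constant exons shared by the cluster was not tested, and it stands for Pcdhga9 in the gamma median and array means. Pcdhgb1 changed by -0.07 (SE 0.11) and the c-type gene Pcdhgc5 by -0.13 (SE 0.10). The probes of Pcdhga5 and Pcdhga10 were not well above background on all 4 arrays of either group, and the other c-type genes of this cluster had no matched probe. With 6 of 22 genes measured, the gamma cluster is described in part only.

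Among the 11 non-clustered genes, 9 had a lower value in 29M and 2 a higher one, and none of their 21 probes was called in the limma fit. At an unadjusted p under 0.05, 2 of these probes were lower, those of Pcdh17 and Pcdh12, beside the 8.68% of all probes. Pcdh17, a delta protocadherin with a role in presynaptic assembly, measured 14.57, 14.37, 14.52 and 14.47 in 3M and 14.15, 14.23, 14.30 and 13.93 in 29M. It was the only gene of this group whose ages did not overlap, with a change of -0.33 (SE 0.10) and an adjusted p of 0.142. Its probe was 1 of 21, where 5.48% of all probes had groups apart in this direction. Pcdh12, which is found mainly in endothelial cells, measured 8.15, 8.06, 7.56 and 8.07 in 3M and 7.71, 7.24, 7.62 and 6.88 in 29M. Its change of -0.59 (SE 0.20) was as large as that of the dimmer Pcdhac2 probe, but the groups overlapped and the adjusted p was 0.178. Within slides it was -0.90, -0.81 and -0.10.

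Most endothelial marker genes had the opposite sign to Pcdh12. Of 6 markers (Cldn5, Pecam1, Flt1, Kdr, Cdh5 and Tek) 5 were higher and 1 lower in 29M, none was called, and their mean log2 intensity ran from 11.32 to 11.57 in 3M and from 11.53 to 11.77 in 29M, with all of them above background. Their part in the Pcdh12 value was not tested. In whole tissue, fewer cells of a type and less RNA per cell cannot be told apart.

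The other delta protocadherins apart from Pcdh7, which is described below, changed by -0.25 to -0.02 on their brightest probe. Pcdh8, also known as arcadlin, is induced by neuronal activity and takes part in the removal of cadherins from synapses, and it changed by -0.12 (SE 0.09). Pcdh10, which helps to eliminate excitatory synapses, changed by -0.14 (SE 0.13), and by -0.18 on its other probe. Pcdh19, mutated in a human epilepsy, changed by -0.08 (SE 0.09), with values of 15.25, 15.04, 14.95 and 15.07 in 3M and 14.92, 15.03, 15.11 and 14.93 in 29M. Pcdh1 changed by -0.05 (SE 0.09), Pcdh9 by -0.06 (SE 0.10), Pcdh18 by -0.25 (SE 0.19) and Pcdh20 by -0.02 (SE 0.10). The other 2 probes of Pcdh9 read 0.36 and 0.06, so its probes did not all point one way.

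Pcdh7 had the widest spread. Its brightest probe measured 8.67, 10.55, 10.80 and 9.89 in 3M and 10.74, 10.88, 9.76 and 10.34 in 29M. The change of 0.45 (SE 0.43, adjusted p 0.645) rested on the first 3M array, without which it was 0.02. Its other 2 probes changed by 0.23 and -0.06. Pcdh15, a component of the tip links of inner ear hair cells, had 6 probes with changes from -0.34 to 0.19 and 0.04 on the brightest. One of these 6 was not well above background on all arrays of either group.

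**Figure D4:**
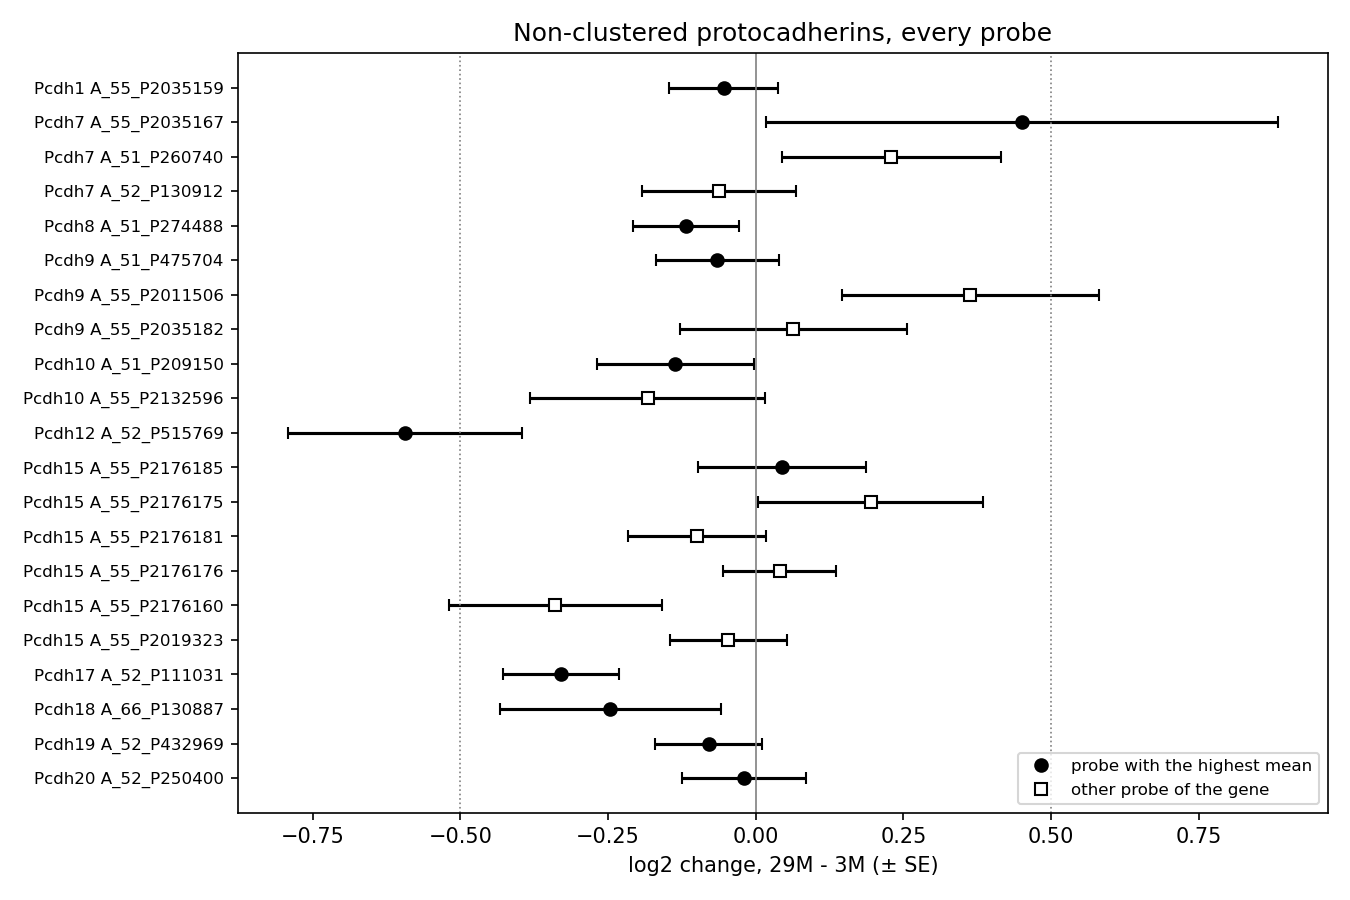
Log2 change (29M minus 3M, x axis) with its standard error for each of the 21 probes of the 11 non-clustered protocadherin genes (y axis, gene and probe name). Filled circles mark the brightest probe of a gene and open squares its other probes; none passed both thresholds, and the dotted lines stand at the minimum change of 0.5.

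Genes that act on or with the protocadherins were examined as 4 lists with 65 genes on the array, of which none was called, beside 1.58% of all genes called higher and 0.699% called lower on their brightest probe. The 22 regulators of the clustered genes, such as the insulator protein Ctcf, the cohesin subunit Rad21, the repressor Smchd1 and the DNA methyltransferase Dnmt3b, had a median change of 0.10. The lowest adjusted p among them was 0.209, and at an unadjusted p under 0.05 in the limma fit 2 were higher, the cohesin subunit Stag2 (0.22) and the cohesin regulator Pds5a (0.28), where 9.43% of all genes were higher and 7.65% lower by that rule. Ctcf changed by 0.12 (SE 0.16), Rad21 by 0.21 (SE 0.11), Smchd1 by -0.26 (SE 0.13) and Dnmt3b by -0.07 (SE 0.09). The 6 measured genes of shedding and cleavage at the membrane, such as the sheddase Adam10, had a median of 0.02.

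The 25 intracellular and membrane partners had a median of -0.02. On their brightest probe, the GTPase Rac1 (0.30, adjusted p 0.107) and the integrin Itgb1 (0.40, adjusted p 0.207) were higher at an unadjusted p under 0.05 in the limma fit. The WAVE complex subunit Abi2 (-0.19, adjusted p 0.275) was lower by that rule. The other probe of each gene changed by -0.02 for Rac1 (adjusted p 0.963), 0.46 for Itgb1 and -0.09 for Abi2, so the Rac1 rise was on its brightest probe only. Dimmer probes of Taok2 (0.74, adjusted p 0.107) and Wasf3 (-0.36, adjusted p 0.0882), picked after the values were seen, each missed a threshold in the limma fit. On their brightest probes these genes changed by -0.23 and -0.12. The 12 measured genes of other large cadherins, of the Fat, Dchs and Celsr types among others, had a median of -0.08, from -0.24 for Dchs1 to 0.20 for Celsr1.

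Markers of cell types were read as a check on the tissue. All 9 neuronal markers were above background and none was called (median change 0.04, mean log2 intensity from 14.80 to 15.11 in 3M and from 14.96 to 15.09 in 29M). Of 10 microglial markers, 9 were higher in 29M and 3 were called, C1qa, Ctss and Trem2, and their mean log2 intensity ran from 13.74 to 14.05 in 3M and from 14.18 to 14.41 in 29M, with none at background. Of 7 astrocyte markers 4 were higher and 3 lower in 29M (median 0.08), and only Gfap was called (0.71). Of 6 markers of oligodendrocyte precursors 5 were higher and 1 lower (median 0.18). The lower one, Gpr17 (-0.99), was the only one called. The markers of oligodendrocytes, choroid plexus, ependyma and meninges had medians of 0.17, 0.12, -0.10 and 0.20 with no call. Every marker of choroid plexus and ependyma had its lowest 3M value on replicate 3. There Folr1 measured 13.41, against 14.58, 14.82 and 15.02 on the other 3M arrays. Ccdc153 measured 11.27 there, against 13.00, 13.00 and 13.51. The Pcdhb genes were higher on the same arrays on which microglial markers were higher, and the part of the cell makeup in the Pcdhb values was not tested.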

How the data were processed

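Scanner output of 8 one-colour arrays was used, as deposited: the authors' median spot intensity (unit: intensity), written by Agilent Feature Extraction 10.7.3.1 for design 026655 (mm9) per the file headers, which differ from the version and design named in the methods. The mean spot signal was not used, as the files used here hold the median. Control and outlier spots (127 to 190 per array) were left out, between 76.2% and 85.0% of spots were well above background and none was saturated; the number of arrays limits the precision. Intensities were normalized with a variance stabilising model written for this work (trimming quantile 0.9, 7 iterations), spots of a probe were averaged, and limma 3.58.1 (R 4.3.3) fitted age over 39408 probes with at least 3 usable arrays per group, with Benjamini-Hochberg adjustment over all of them, as in the study's methods. Arrays correlated at r = 0.991 to 0.998.

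Symbols came from RefSeq (GRCm38.p6), which also gave gene order. They were assigned by probe accession where it matched a single gene, which named 26055 of 39429 probes. Named were all non-clustered genes, called genes, the 3 largest rises and falls per cluster, and c-type genes. The members and all lists were chosen with earlier results of these data known. The pipeline was tested on simulated data (39098 probes, 200 changed): it recovered 88% at a log2 change of 1 and 99% at 2, with 3.61% false calls. Smaller changes, such as most of those described here, were not simulated, so their recovery is not known. Alternatives covered normalization, outlier spots, dim probes, slide, replicate number, prior, array weights, thresholds and left-out arrays. The deposited series table was not used: all 8 of its columns equalled an array's local background signal (tolerance 0.001), 7 of them that of another sample's array.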

Additional observations from a re-analysis of the deposited data

Results flagged for a closer look

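In 6 of 66 groups of 4 arrays examined, 1 array lay far from the other 3, where chance flags about 1 in 20, or 3.3 of 66. The share of the group's range taken by the gap was 0.838 for Pcdh12 in 3M (replicate 3 at 7.56, the others from 8.06 to 8.15) and 0.854 for Pcdh20 in 29M (replicate 4 at 14.45, the others from 14.77 to 14.82). It was 0.864 for Pcdhb2 in 3M (replicate 4 at 6.57, the others from 7.06 to 7.14) and 0.884 for Pcdhb3 in 3M (replicate 1 at 9.76, the others from 10.54 to 10.64). Without the array concerned the changes were -0.73 for Pcdh12, 0.07 for Pcdh20, 0.42 for Pcdhb2 and 0.62 for Pcdhb3. The mean deviation over the gamma genes was flagged in 3M (0.887, replicate 4 at 0.09 and the others from -0.06 to -0.04), and that over the non-clustered genes in 29M (0.893, replicate 4 at -0.19 and the others from -0.02 to 0.00).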

How the results depend on the processing

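The count of protocadherin probes called higher (6) was 1 with a replicate block, 3 at an adjusted p under 0.05, 10 with no minimum change and 2 to 7 with 1 array left out, lowest without 3M replicate 2 (2) and without 29M replicate 1 or 2 (3 each); 4 to 8 were called under the other settings. The count called lower (1) was 0 after 75th percentile scaling, with the variance stabilising model on the processed signal and at an adjusted p under 0.05, 2 with array weights, and 0 to 2 with 1 array left out: 0 without 3M replicate 2 or 3 or without 29M replicate 1, 3 or 4, and 2 without 3M replicate 4. The count over partner and regulator genes (0) was 0 to 1 with 1 array left out (1 without 29M replicate 3). The median of the non-clustered genes (-0.08) was -0.20 within slide 1 and -0.015 within slide 2. Pcdhb9 kept its call in all 18 fits with another setting, Pcdhb4 in 16, Pcdhb7 in 14, the dimmer Pcdhac2 probe in 11, Pcdhb8 in 9, and Pcdhb2 and Pcdhb3 in 8 each; Pcdh12 passed with array weights and Pcdha12 without 3M replicate 4, and Pcdhb6, Pcdhb13 or Pcdhb14 passed in some fits. With 1 array left out, the medians ran from -0.36 to -0.19 (alpha), 0.36 to 0.44 (beta), -0.03 to 0.07 (gamma, whose sign also turned with 75th percentile scaling, array weights and the mean over probes) and -0.12 to -0.07 (non-clustered). No call turned its direction. The cause of the lost calls was not tested.

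The labels do not say whether the replicate numbers pair the arrays. Deviations of same-numbered arrays correlated at -0.24, 0.21, -0.23 and 0.07, and 1 of 4 correlated best with its own number. These values show no common pairing, but so few arrays cannot exclude it. With the number as a block the counts were 1 higher and 1 lower, and the medians of the groups were as without it. Slide as a random block gave the same 6 higher and 1 lower. As a fixed block it gave 6 higher, of which 5 were called without it: Pcdhb2 was lost and Pcdhb6 gained.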
